A study of Mus musculus with 16 samples.

Results

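Mitosis and the G2/M transition depend on a set of genes that dividing cells transcribe late in the cell cycle. Of 49 such genes, 47 had an array feature that maps to exactly 1 gene symbol, out of 22180 genes with such a feature. Where a gene had several, the feature with the highest mean over the 16 arrays was taken. All 47 were above the filter on dim genes and entered the tests over 15526 genes. Ncapg and Ccnf, the other two, were measured only by features that also map to a second symbol, and they are left out of the counts.

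The cells were bone marrow-derived macrophages of male C57BL/6 mice aged 5 weeks, which M-CSF and the cytokine RANKL turn into bone-resorbing osteoclasts. Single arrays followed cells given 1 mM dimethyl αKG, an ester of α-ketoglutarate, with M-CSF and RANKL at 0.5, 1, 3, 6, 12, 24, 48 and 72 h, and cells given DW, the control treatment under its label, with M-CSF and RANKL at 3, 6, 12, 24, 48 and 72 h. The baseline was a pair of arrays at 0 h with DW and M-CSF but no RANKL. The labels join neighbouring times into phases of 2 arrays: fast (0.5 and 1 h, αKG only), early (3 and 6 h), intermediate (12 with 24 h) and late (48 with 72 h). Time in culture runs with RANKL and cannot be told apart from it, and against 0 h the αKG arrays also differ by αKG itself. No label states separate cultures or animals for the arrays, so p-values cannot be taken to measure spread between animals. Only the 0 h condition has a second array, and the spread of that pair may be technical. In tests by time and of αKG against DW, the spread also holds changes of the αKG effect between times. In tests of a phase against 0 h it also holds the gap between the times joined.

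Cells that prepare to divide make cyclin-dependent kinase 1, condense and separate their chromosomes, build a spindle, check the attachment of each kinetochore and split at the midzone, and then destroy many of these proteins. The genes are switched on together in G2 by complexes of the MuvB core with B-MYB (Mybl2) and with FOXM1, and the same MuvB core with pocket proteins and E2F4 keeps them low in resting cells. Macrophage precursors proliferate in M-CSF, while osteoclasts form by fusion of cells that have left the cycle. In bulk RNA, fewer dividing cells and less RNA per cell cannot be told apart.

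The promoters of these genes are described here, and whether their motifs go with the changes over time was not tested. RefSeq promoter windows (GRCm38.p6, from 250 bases before to 50 bases after the gene start) were found for 40 of the 47 genes and not for Smc4, Cdca2, Pbk, Aurkb, Tpx2, Kif20a and Foxm1. The letters TTTGAA or TTCGAA, the core of the cell cycle genes homology region to which MuvB complexes bind, stood on either strand in 31 of the 40 windows (77.5%), against 19.4% of 27025 promoter windows and 14.2% of the 12077 windows of tested genes. CCAAT, the box that NF-Y binds, stood on either strand in 29 windows (72.5%), against 37.9% of all windows. Both were present in 27 windows (67.5%), against 7.7% of all windows. At least 2 CCAAT boxes were present in 50% of the genes' windows and 12.2% of all windows. The letters of the pair of motifs overlapped in 1 gene, Cdca8. The genes printed below were picked from those with both motifs before the start, so they do not stand for all 40 windows. Nuf2 and Mybl2, for example, held neither motif. The bases upstream of the start are given for 5 genes, with both motifs in capitals on whichever strand they were read: Mki67 (chr7:135716380-135716629, minus strand), Top2a (chr11:99024190-99024439, minus strand), Cdk1 (chr10:69352913-69353162, minus strand), Ube2c (chr2:164769679-164769928, plus strand) and Cdc20 (chr4:118437344-118437593, minus strand).
Mki67: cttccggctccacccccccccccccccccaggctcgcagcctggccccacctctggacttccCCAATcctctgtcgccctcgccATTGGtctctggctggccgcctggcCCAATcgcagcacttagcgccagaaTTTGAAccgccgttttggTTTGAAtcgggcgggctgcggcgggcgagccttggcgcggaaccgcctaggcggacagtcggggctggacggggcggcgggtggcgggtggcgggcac
Top2a: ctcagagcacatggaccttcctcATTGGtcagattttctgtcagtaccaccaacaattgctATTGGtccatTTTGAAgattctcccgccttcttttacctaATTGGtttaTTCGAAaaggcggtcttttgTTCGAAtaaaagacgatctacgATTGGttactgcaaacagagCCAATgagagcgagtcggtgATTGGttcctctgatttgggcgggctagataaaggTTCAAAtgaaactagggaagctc
Cdk1: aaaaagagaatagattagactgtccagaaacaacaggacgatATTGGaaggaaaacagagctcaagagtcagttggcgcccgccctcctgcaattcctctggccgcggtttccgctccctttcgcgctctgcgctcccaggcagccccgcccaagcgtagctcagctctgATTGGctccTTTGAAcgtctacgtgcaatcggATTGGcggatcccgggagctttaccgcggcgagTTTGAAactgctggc
Ube2c: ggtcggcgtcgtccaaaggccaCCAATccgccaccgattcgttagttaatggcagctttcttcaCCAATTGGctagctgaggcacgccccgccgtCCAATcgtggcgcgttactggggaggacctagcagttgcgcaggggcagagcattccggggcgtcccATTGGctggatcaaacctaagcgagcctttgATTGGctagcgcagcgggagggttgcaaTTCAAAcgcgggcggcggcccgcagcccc
Cdc20: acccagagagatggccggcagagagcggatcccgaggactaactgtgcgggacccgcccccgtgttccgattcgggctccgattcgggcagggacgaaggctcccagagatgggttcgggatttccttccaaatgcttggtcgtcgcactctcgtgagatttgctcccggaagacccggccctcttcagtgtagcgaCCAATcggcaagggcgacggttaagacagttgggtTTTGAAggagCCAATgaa
Top2a held the first motif at 4 places and CCAAT at 6, and Ube2c held them at 1 and 6 places, with one stretch (CCAATTGG) that reads as CCAAT on both strands. The match to the first motif nearest the start began 15 bases before it in Cdk1 and 18 bases before it in Cdc20, and the nearest CCAAT began 48 bases before it in Cdk1 and 8 in Cdc20. In 18 genes, among them Plk1, Aurka, Bub1 and Prc1, the first motif lay only within or across the 50 bases after the start. A match of letters describes a window and is not evidence of binding.

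Macrophage markers were present throughout: the median of 9 macrophage markers lay between 10.27 and 11.10 (log2 level) in every array, while the medians of B cell, T and NK cell, stromal, erythroid and haematopoietic progenitor markers stayed between 3.83 and 5.21. Neutrophil and granulocyte progenitor markers (12 genes) had a median of 5.18 with αKG and 5.12 with DW at 72 h, against 7.85 and 7.77 at 0 h. Osteoclast markers (12 genes) had a median of 8.75 with αKG and 10.78 with DW at 72 h, against 5.36 and 5.46 at 0 h. The DW array at 72 h stood apart from the others. Its mean correlation with the other arrays over the 15526 genes tested was 0.928, against 0.96 to 0.975 for the rest.

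The 47 genes had a trough at 12 and 24 h, a return at 48 h and a second low at 72 h, and with αKG the values of the trough were lower and those at 72 h higher than with DW. Their median log2 level with αKG was 8.56, 8.58, 8.48, 8.12, 7.69, 7.65, 8.59 and 8.26 from 0.5 to 72 h. With DW it was 8.53 in both arrays at 0 h and then 8.61, 8.39, 8.13, 8.20, 8.62 and 6.70 from 3 to 72 h. The 2 arrays at 0 h differed from each other by between -0.17 and 0.28 log2 in single genes (SD 0.09).

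**Figure D1:**
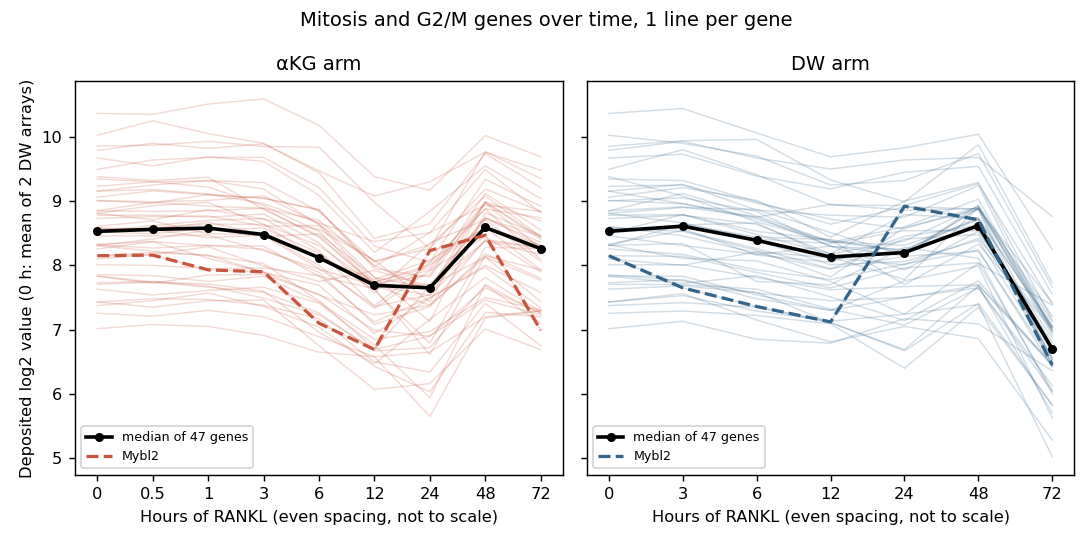
Deposited log2 level (y axis) of each of the 47 genes (thin lines) against time in hours on an evenly spaced axis, αKG arrays left and DW arrays right, with the median in black and Mybl2 dashed. Both medians dipped at 12 and 24 h and were back near the 0 h level at 48 h, and at 72 h the median was 8.26 with αKG and 6.70 with DW. Mybl2 at 24 h was 0.77 above its 0 h mean with DW and near it with αKG (0.08).

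Among the genes of chromosome structure, Mki67 (the Ki-67 protein that coats mitotic chromosomes) and Smc4 (a core subunit of condensin) are given in every array, along with Top2a, the topoisomerase that untangles sister DNA. The values of each gene run from 0.5 to 72 h with αKG, and from the pair at 0 h through 3, 6, 12, 24 and 48 h to 72 h with DW. Mki67 had log2 levels of 10.35, 10.51, 10.59, 10.18, 9.38, 9.17, 10.02 and 9.69 with αKG, and of 10.36 and 10.37 at 0 h and then 10.44, 10.06, 9.69, 9.83, 10.04 and 8.25 with DW. For Top2a the levels were 9.55, 9.69, 9.62, 9.09, 8.20, 8.84, 9.55 and 9.04 with αKG, and 9.67 and 9.67 at 0 h and then 9.73, 9.39, 9.19, 9.45, 9.54 and 7.55 with DW. Smc4 read 9.90, 9.82, 9.89, 9.47, 9.08, 9.30, 9.76 and 9.48 with αKG, and 9.85 and 9.73 at 0 h and then 9.93, 9.67, 9.50, 9.64, 9.68 and 8.76 with DW. All 3 were lowest in the DW array at 72 h, and their αKG values at 12 and 24 h lay below every other αKG array. Of the 8 measured genes of this class, 6 fell at 72 h relative to 0 h over both arms (limma, adjusted p under 0.05), where 17.5% of all genes did. The counts by class at 72 h given here and below add up to 31 calls, and with robust eBayes 15 of the 47 genes passed. Ncapd2 (a condensin subunit) and Espl1 (separase, which cuts cohesin) did not pass, with changes of -0.91 and -0.18.

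The mitotic kinases differed from one another at 24 h. Plk1, which drives centrosome maturation and mitotic entry, had log2 levels of 9.87, 9.93, 9.85, 9.84, 8.98, 8.26, 9.77 and 9.35 with αKG, and of 9.85 and 9.86 at 0 h and then 9.94, 9.96, 9.33, 8.99, 9.88 and 7.73 with DW. Aurka, the spindle pole kinase, had levels of 8.76, 8.77, 8.61, 8.62, 7.74, 7.97, 8.98 and 8.41 with αKG, and of 8.69 and 8.77 at 0 h and then 8.78, 8.64, 8.18, 8.38, 8.92 and 7.05 with DW. Cdk1, the kinase that starts mitosis, had levels of 8.69, 8.49, 8.48, 8.0, 7.33, 7.92, 8.45 and 7.90 with αKG, and of 8.57 and 8.65 at 0 h and then 8.46, 8.19, 7.94, 8.41, 8.48 and 6.70 with DW. Plk1 was lower at 24 h than at 12 h in both arms, while Cdk1 was lower at 12 h than at 24 h in both. Of the 6 kinases, 5 fell at 72 h relative to 0 h, and Melk had a change of -1.10 ± 0.40 (SE, adjusted p = 0.063, limma).

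Kinetochore and checkpoint genes form the widest class, with 13 members. Nuf2, part of the Ndc80 complex that grips microtubules, had log2 levels of 9.30, 9.32, 9.29, 8.84, 8.05, 8.32, 9.08 and 8.45 with αKG, and of 9.36 and 9.33 at 0 h and then 9.32, 8.99, 8.64, 8.91, 8.88 and 6.64 with DW. Aurkb, the kinase of the chromosomal passenger complex, had levels of 9.18, 9.11, 8.96, 8.66, 8.37, 8.51, 8.94 and 8.84 with αKG, and of 9.08 and 9.23 at 0 h and then 8.96, 8.75, 8.95, 8.86, 8.88 and 7.42 with DW. The DW array at 72 h was the lowest for both genes, and at that time both stood above their own 12 h level with αKG. Over this class 9 of 13 genes fell at 72 h, and Cenpa, Cenpf, Ndc80 and Bub1b did not pass, with changes between -1.32 and -0.47.

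Spindle motors and microtubule proteins were represented by Kif11, the motor that pushes spindle poles apart, and Tpx2, which activates Aurora A on the spindle. Kif11 had log2 levels of 9.25, 9.32, 9.19, 8.63, 8.07, 8.26, 9.19 and 8.84 with αKG, and of 9.21 and 9.10 at 0 h and then 9.26, 8.86, 8.78, 8.75, 9.24 and 6.97 with DW. Tpx2 had levels of 8.97, 9.10, 9.05, 8.86, 7.95, 7.82, 8.97 and 8.26 with αKG, and of 9.03 and 8.98 at 0 h and then 9.05, 8.84, 8.29, 8.25, 8.72 and 6.54 with DW. Both were lower with αKG than with DW at 12 and 24 h, and lowest with DW at 72 h. In this class 3 of 9 genes passed the test at 72 h (Tpx2, Kif4 and Hmmr), and the median change of the class was -0.36 in the αKG array and -1.96 in the DW array.

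Genes of the midzone and cytokinesis act at the end of mitosis. Ect2, the exchange factor that activates RhoA at the cleavage furrow, had log2 levels of 10.25, 10.05, 9.90, 9.44, 8.42, 8.65, 9.74 and 9.21 with αKG, and of 10.03 and 10.02 at 0 h and then 9.90, 9.70, 9.25, 9.32, 9.74 and 7.66 with DW. Prc1, which bundles midzone microtubules, had levels of 9.64, 9.68, 9.68, 9.21, 8.30, 8.05, 9.34 and 8.92 with αKG, and of 9.50 and 9.49 at 0 h and then 9.80, 9.41, 8.94, 8.93, 9.27 and 7.40 with DW. At 12 and 24 h both were lower with αKG than with DW, and at 72 h both were higher. Kif23, Racgap1, Ect2 and Prc1 fell at 72 h relative to 0 h, while Kif20a and Anln did not pass.

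Of the genes of protein destruction, Cdc20 activates the anaphase-promoting complex and Ube2c is its ubiquitin-conjugating enzyme. Cdc20 had log2 levels of 8.49, 8.58, 8.45, 8.49, 7.82, 7.13, 8.82 and 8.47 with αKG, and of 8.46 and 8.59 at 0 h and then 8.63, 8.66, 8.13, 7.78, 8.90 and 7.21 with DW. Ube2c had levels of 8.84, 8.85, 8.89, 8.70, 8.0, 7.62, 8.99 and 8.44 with αKG, and of 8.91 and 8.79 at 0 h and then 8.91, 8.75, 8.30, 8.15, 8.90 and 6.92 with DW. Cdc20 was one of 4 genes whose lowest value was not at 72 h with DW: its αKG array at 24 h was lower. Ube2c and Cdca3, a mitotic entry factor, passed the test at 72 h against 0 h and Cdc20 did not.

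Both transcription factors of the set fell by 72 h, and they differed before it. Foxm1, which drives G2/M transcription, had log2 levels of 7.84, 7.75, 7.83, 7.43, 6.85, 6.97, 7.50 and 7.31 with αKG, and of 7.85 and 7.86 at 0 h and then 7.76, 7.57, 7.45, 7.50, 7.65 and 6.04 with DW. Mybl2, the B-MYB factor that joins MuvB in S phase, had levels of 8.16, 7.93, 7.90, 7.10, 6.69, 8.23, 8.47 and 6.99 with αKG, and of 8.09 and 8.21 at 0 h and then 7.65, 7.36, 7.12, 8.92, 8.71 and 6.45 with DW. Mybl2 was down by 6 h. At 24 h it was 0.77 above its 0 h mean with DW but 0.08 with αKG, less than the 0.13 between the 0 h arrays. At 48 h it was above both 0 h arrays in each arm, by 0.32 from their mean with αKG and 0.56 with DW. Foxm1 was below 0 h at 24 and 48 h in both arms. A second Mybl2 feature, dimmer at 4.59 to 5.85, had its αKG minimum at 12 h but changed by only -0.34 at 12 h (adjusted p = 0.121, limma) and -0.27 at 72 h (adjusted p = 0.179), so the calls for Mybl2 depend on the feature chosen.

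**Figure D2:**
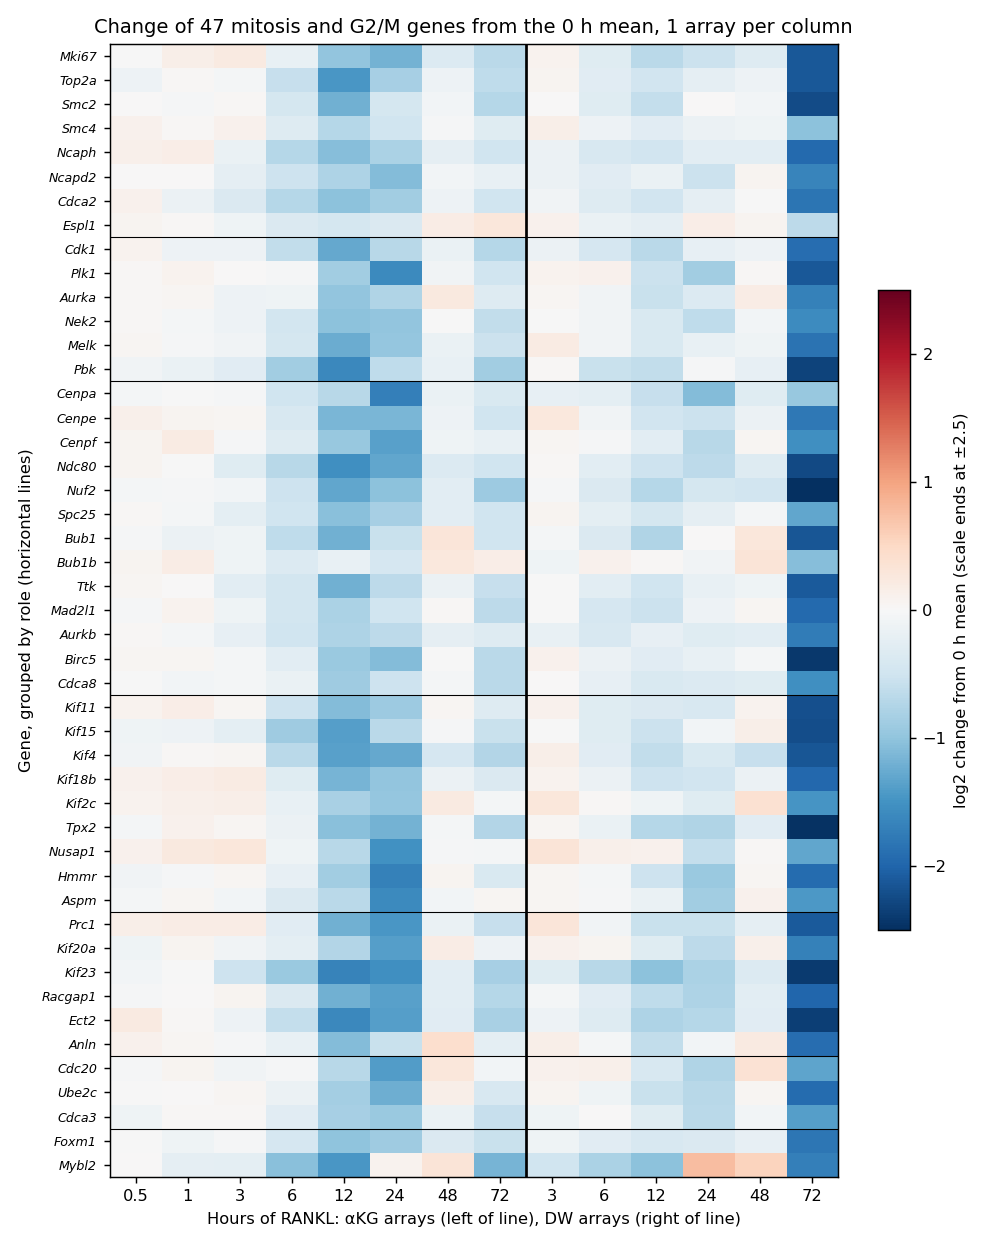
Log2 change of each of the 47 genes (rows, grouped by role) from the mean of the 0 h arrays, with αKG arrays from 0.5 to 72 h left of the line and DW arrays from 3 to 72 h right of it; blue is lower, and the colour scale ends at 2.5 log2 either way. The αKG columns at 12 and 24 h are lower than the DW columns at those times in all 47 genes, and the DW column at 72 h is the darkest for 43 of 47 genes.

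Up to 3 h the medians changed little, and at 6 h they were lower in both arms. At 0.5 and 1 h with αKG, the 47 genes had median changes of 0.02 and 0.02 from 0 h, and single genes lay between -0.22 and 0.24. With both arms as repeats of a time, 0 of 47 genes passed at 3 h (limma, 0 also at unadjusted p under 0.05), where 0.863% of all genes fell and 2.04% rose. At 6 h also 0 passed (1 at unadjusted p under 0.05), where 2.25% of all genes fell. The median level at 6 h was 8.12 with αKG and 8.39 with DW, against 8.53 in both arrays at 0 h. Single genes at 6 h lay between -1.05 (Mybl2) and -0.02 (Plk1) from the 0 h mean with αKG. With DW they lay between -0.79 (Mybl2) and 0.13. By phase, the fast αKG group had 0 of 47 genes past the threshold (limma, 0 unadjusted), as did early αKG and early DW (0 unadjusted each), and of all genes 0%, 0.103% and 0.0386% were lower in those phases and 0%, 0.399% and 0.303% higher.

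The trough at 12 and 24 h was deeper with αKG. Relative to 0 h the median change at 12 h was -1.03 with αKG and -0.50 with DW, and at 24 h it was -0.97 with αKG and -0.38 with DW. Both the 12 h and the 24 h array lay below both 0 h arrays and the 48 h array in 46 of 47 genes with αKG (all but Mybl2), where 11.2% of all genes did so, and in 36 of 47 with DW, where 9.02% did. αKG was below DW at both 12 and 24 h in 47 of 47 genes, against 28.8% of all genes. The differences ran from -1.02 to -0.11 at 12 h and from -0.91 to -0.17 at 24 h, each between single arrays.

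The tests of the trough passed for few genes. Over both arms, Mybl2 alone fell at 12 h relative to 0 h (-1.18 ± 0.24 log2, SE, adjusted p = 0.00724, limma), where 8.90% of all genes were lower. At 24 h Cenpa alone fell, the histone variant that marks centromeres, with a change of -1.38 ± 0.23 (adjusted p = 0.00374, limma), where 4.59% of all genes were lower and 4.28% higher. At unadjusted p under 0.05 the counts were 19 at 12 h and 17 at 24 h. Leaving out the DW array at 72 h changed the counts to 37 at 12 h and 24 at 24 h, and leaving out the αKG array at 72 h changed them to 37 and 23; in these fits the arms no longer meet at 72 h, where they differed most. By phase, intermediate αKG had 0 of 47 genes past the threshold relative to 0 h (limma, 30 at unadjusted p under 0.05, median -1.02) and intermediate DW had 0 (1 unadjusted, median -0.39), with 0.238% and 0.328% of all genes lower and 0.432% and 0.451% higher. The αKG effect in the intermediate phase was negative in 47 of 47 genes, with a median of -0.57 against 0.00 over all genes, but 0 of 47 passed (limma with time as a block, 19 unadjusted), where 0.0193% of all genes were lower and 0.0773% higher. Its lowest adjusted p was 0.307, for Nusap1, a microtubule-bundling protein.

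Within the trough the genes did not move alike from 12 to 24 h, and they took a similar order in both arms. Over the 47 genes the change from 12 to 24 h correlated between the αKG and the DW arm at r = 0.90 (Spearman's rho 0.87), each arm with its own arrays, and over all 15526 genes at r = 0.83, so the likeness of the arms is no property of these genes alone. This is across genes, which are not independent replicates, and every change is between single arrays. The genes named next were chosen after their values were seen. Mybl2 was higher at 24 h than at 12 h by 1.54 with αKG and 1.81 with DW, and others that were higher in both arms included Pbk, a mitotic kinase (0.98 and 0.58), Smc2, a condensin subunit (0.78 and 0.61), Bub1, a checkpoint kinase (0.66 and 0.77), and Cdk1 (0.59 and 0.47). The opposite was seen for Cenpa (-1.02 with αKG and -0.50 with DW), Aspm, a spindle pole protein (-0.92 and -0.69), Hmmr, a spindle assembly protein (-0.82 and -0.41), Nusap1 (-0.81 and -0.70), Plk1 (-0.72 and -0.33) and Cdc20 (-0.70 and -0.35). The level was lower at 24 h than at 12 h in both arms in 17 of 47 genes (36.2%, against 36.8% of all genes), so this share was that of genes at large. It was higher in both arms in 24 (51.1%, against 35.4% of all genes). In the test over both arms, Mybl2 alone was lower at 12 h than the mean of 6 and 24 h, with a difference of -1.0 ± 0.20 (adjusted p = 0.00655, limma), where 8.87% of all genes were, and without either 72 h array 11 genes were.

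**Figure D3:**
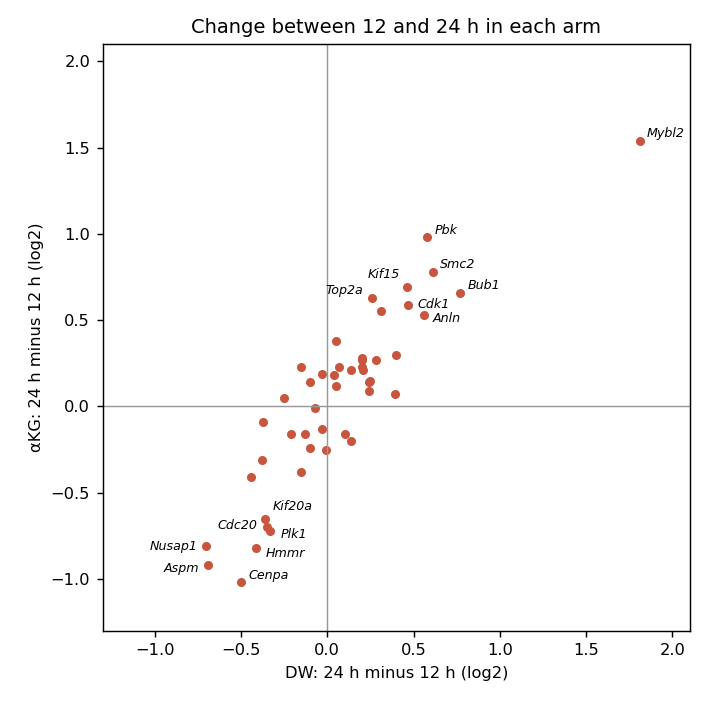
Log2 level at 24 h minus that at 12 h for each of the 47 genes (points), αKG arm on the y axis and DW arm on the x axis, 1 array per arm and time. Genes lie along a rising line (r = 0.90), from Cenpa, Aspm and Nusap1 at the lower left to Mybl2 at the upper right.

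At 48 h the genes were back near the 0 h level in both arms. The median change from 0 h was -0.08 with αKG and -0.06 with DW, and αKG minus DW had a median of 0.00, with 24 genes above and 23 below 0. All 47 genes with αKG and 46 with DW, Kif4 excepted, lay within 0.5 log2 of the range of the 0 h arrays, but 91.8% and 87.1% of all genes did as well. Against 0 h 0 of 47 genes passed at 48 h (limma, 0 unadjusted), where 7.41% of all genes were lower and 5.29% higher. Against 24 h the median change was 0.85 with αKG and 0.33 with DW. Cenpa alone rose past the threshold over both arms, by 1.16 ± 0.22 (adjusted p = 0.0256, limma), where 0.470% of all genes were higher and 1.31% lower. Without either 72 h array 25 of the 47 rose, and without the 24 h αKG array or either 48 h array 0 did.

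At 72 h the genes were moderately low in the αKG array and far lower in the DW array. With αKG the change from the 0 h mean had a median of -0.50 and a range of -1.16 to 0.28. With DW it had a median of -1.91 and a range of -2.71 to -0.65. The DW array at 72 h held the lowest of the 16 values in 43 of 47 genes, against 19.6% of all genes; the exceptions were Cenpa, Nusap1, Aspm and Cdc20. The level at 72 h was at least 1 log2 below that at 48 h with αKG in 1 of 47 genes, Mybl2, as in 1.60% of all genes, and with DW in 44, against 4.70% of all genes. The 3 genes that changed less with DW were Smc4, Espl1 and Cenpa. Both 0 h arrays were above the αKG array at 72 h in 43 genes, where 42.1% of all genes showed that order.

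Over both arms, 31 of 47 genes fell at 72 h relative to 0 h and 0 rose, where 17.5% of all genes fell, and the median change was -1.19 against 0.00 over all genes. With robust eBayes the count was 15. The largest changes past the threshold were those of Nuf2 (-1.86 ± 0.45, adjusted p = 0.0102), Tpx2 (-1.71 ± 0.40, 0.0082), Kif23, a midzone motor (-1.60 ± 0.43, 0.0157), Ect2 (-1.57 ± 0.43, 0.0177) and Birc5, the passenger protein survivin (-1.54 ± 0.47, 0.0296), all by limma. The smallest were those of Smc4 (-0.66), Spc25, a kinetochore protein (-0.79), Cdca3 (-0.96), Aurka (-1.03) and Nek2, a centrosome kinase (-1.06). The call rested on the DW array at 72 h: without it 3 genes passed, with a median change of -0.21 over the 47, and without the αKG array at 72 h 47 passed, with a median of -1.91. In either case 72 h is a single array whose spread is taken from the other times. Leaving out either array at 0 h gave 3 or 4 genes.

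Relative to 48 h, 23 of 47 genes fell at 72 h over both arms and 0 rose, where 13.0% of all genes fell, and with robust eBayes 10 did. Mybl2 fell most (-1.87 ± 0.23, adjusted p = 0.000381, limma), followed by Bub1 (-1.61 ± 0.40, 0.0147), Birc5 (-1.51 ± 0.45, 0.0337), Kif15, a spindle motor (-1.45 ± 0.45, 0.0383), and Tpx2 (-1.44 ± 0.38, 0.0205). The smallest changes past the threshold were those of Cdca3 (-0.85), Cdca8, a passenger protein (-0.93), Cdc20 (-1.02), Nek2 (-1.06) and Racgap1, a partner of Kif23 (-1.08). All 3 genes of protein destruction passed here, and 1 of the 8 genes of chromosome structure (Smc2). Leaving out the DW array at 72 h gave 3 genes, either 48 h array 1, either 0 h array 12, and the αKG array at 72 h 47.

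By phase, late αKG had 0 of 47 genes past the threshold relative to 0 h (limma, 0 unadjusted, median -0.31), where 0.799% of all genes were lower and 0.631% higher. Late DW also had 0 of 47 (limma, 23 at unadjusted p under 0.05, median -0.96, lowest adjusted p = 0.0708 for Kif4, a chromosome motor), where 3.30% of all genes were lower and 3.34% higher. A phase joins the 48 and 72 h arrays, which differed; without the DW array at 48 h 44 genes passed as lower, with late DW then the 72 h array alone and its spread taken from the other groups.

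The direct comparison of αKG with DW asks how αKG changes these genes at matched times. The median of αKG minus DW was -0.08 at 3 h and -0.22 at 6 h. It was -0.60 at both 12 and 24 h, 0.00 at 48 h, then 1.43 at 72 h. At 72 h all 47 genes were higher with αKG, by 0.54 to 1.88, and 39 by at least 1 log2, where 1.78% of all genes were. The 8 with a smaller difference were Smc4, Espl1, Nek2, Cenpa, Spc25, Cdca8, Cdca3 and Mybl2. Median differences by role at 72 h were 1.55 for midzone genes, 1.54 for spindle motors and microtubule proteins, 1.44 for chromosome structure, 1.37 for kinetochore and checkpoint genes, 1.33 for kinases, 1.25 for protein destruction and 0.90 for the pair of transcription factors, all as log2 differences between 2 arrays.

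**Figure D4:**
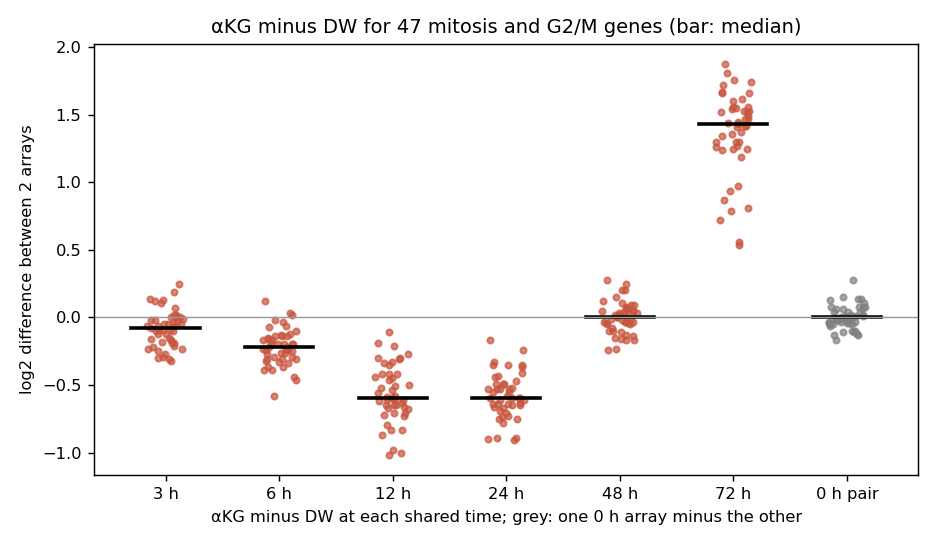
αKG minus DW in log2 (y axis) for each of the 47 genes (points) at the 6 shared times, with the median as a bar, and in grey the difference between the 0 h arrays. The medians are -0.60 at 12 and 24 h, 0.00 at 48 h and 1.43 at 72 h, while the 0 h pair spans -0.17 to 0.28.

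The sign of the difference turned between 24 and 72 h, and over all 6 times 0 of 47 genes passed (limma with time as a block, 0 unadjusted), with a median of -0.02, where 0.135% of all genes were lower and 0.264% higher. In the early phase 0 passed as well (0 unadjusted, median -0.16), where 0.0644% of all genes were lower and 0.0966% higher. In the late phase the effect was positive in 47 of 47 genes, with a median of 0.71 against 0.01 over all genes, and 0 passed (39 unadjusted), where 2.09% of all genes were higher. The lowest adjusted p in the late phase was 0.0741, for Cdca8 (0.57 ± 0.15), and for Tpx2 it was 0.0747 (0.98 ± 0.26, limma). Without the 48 h pair 45 of the 47 passed, and without the 72 h pair 0 did; each arm then has 1 late array, which is assumed to vary like those of the other phases. Late effect minus early effect had a median of 0.85, and 0 of 47 passed (26 unadjusted, where 0.348% of all genes were higher). Intermediate minus early had a median of -0.42, and 0 passed (0 unadjusted), as for 0% of all genes. Late minus intermediate, a contrast added after the data were seen, was positive in 47 of 47 genes with a median of 1.30. It passed for 0 (limma, 47 unadjusted, lowest adjusted p = 0.163), where 0% of all genes were higher. Without the 48 h pair 45 genes passed for late minus early and 47 for late minus intermediate.

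Markers of osteoclasts moved with these genes at 72 h in the opposite direction. All 12 osteoclast markers were lower with αKG than with DW at 72 h, with a median difference of -1.77, and all 12 were above 0 h in both arms, by a median of 3.75 with αKG and 5.52 with DW. At 48 h, where αKG minus DW had a median of 0.00 over the 47 genes, the marker medians were 7.85 with αKG and 9.70 with DW. Over the 11 neutrophil and granulocyte progenitor markers above the filter on dim genes (all but Ly6g) the median of αKG minus DW at 72 h was 0.09. The part of either marker set in the results was not tested.

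**Figure D5:**
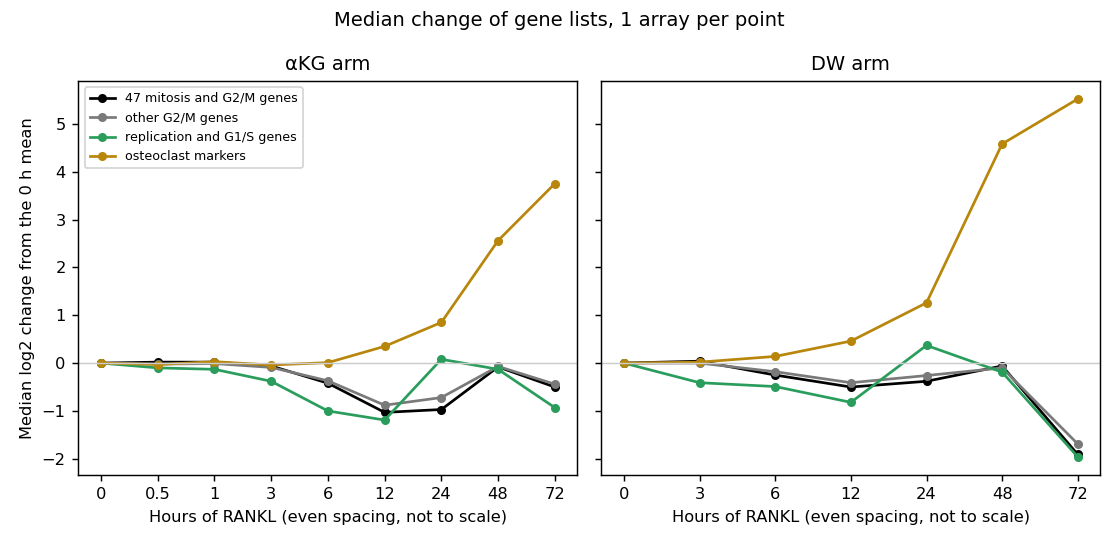
Median log2 change from the 0 h mean (y axis) of the 47 genes, 54 other G2/M genes, 37 replication genes and 12 osteoclast markers, against time in hours on an evenly spaced axis, αKG left and DW right, 1 array per point. Replication genes were back at or above 0 h by 24 h, before the mitosis genes at 48 h, and at 72 h the medians of the 3 cell cycle lists were -0.50, -0.44 and -0.93 with αKG and -1.91, -1.69 and -1.96 with DW.

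Other genes of G2 and mitosis, taken from a wider list of 57 of which 54 were tested, had a median change from 0 h of -0.68 at 12 h and -0.48 at 24 h over both arms. The median was -0.09 at 48 h and -1.05 at 72 h. The change was below 0 in 52 of the 54 at 12 h (all but Psrc1, 0.16, and Pttg1, 0.28), in 48 at 24 h, and in 53 at 72 h (all but Psrc1, 0.31). Ccnb1 was not among those with a feature of 1 symbol. Ccnb2, a cyclin that partners Cdk1, had log2 levels of 9.96, 10.06, 10.06, 9.76, 9.38, 8.0, 9.89 and 9.62 with αKG, and of 10.05 and 10.12 at 0 h and then 10.03, 9.96, 9.71, 8.17, 9.82 and 8.04 with DW. The αKG array at 24 h held its lowest value. Over both arms it fell at 24 h relative to 0 h (-2.09 ± 0.36, adjusted p = 0.00487, limma) and was higher at 48 h than at 24 h (1.77 ± 0.35, adjusted p = 0.0286). Cdc25c, the phosphatase that activates Cdk1, fell at 24 h (-1.56 ± 0.34, adjusted p = 0.0162) and at 72 h (-1.62 ± 0.34, adjusted p = 0.00467). Wee1, the kinase that restrains Cdk1, fell at 12 h (-0.92 ± 0.18, adjusted p = 0.0049) and at 72 h (-1.12 ± 0.18, adjusted p = 0.000969), and at 24 h its change was 0.20. Ccna2, the cyclin of S phase and G2, fell at 72 h (-1.57 ± 0.48, adjusted p = 0.0294) and did not pass at 12 or 24 h (-0.94 and -0.64). Over this list 4 of 54 genes fell at 12 h, where 8.90% of all genes did, 6 at 24 h, where 4.59% did, and 31 at 72 h, where 17.5% did, and 0 rose at these times. The count at 12 h is a share below that of all genes. At 72 h the median level of this list was 7.21 with αKG and 6.04 with DW, against 7.73 and 7.77 at 0 h. The calls at 72 h join both arms, and how far they rest on the DW array was not tested for this list. The largest falls at 72 h were those of Shcbp1 (-1.70), Lmnb1, a lamin (-1.69), and Cenpk (-1.69). In the late phase 2 of the 54 were higher with αKG, where 2.09% of all genes were: Cenph, a kinetochore protein (0.82, adjusted p = 0.0348, limma), and Cdc25b, a phosphatase of the same family as Cdc25c (0.90, adjusted p = 0.0431).

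DNA replication and G1/S genes, which act a step earlier in the cycle, were low at 3 to 12 h and back by 24 h. Of 37 tested genes, Cdt1, a licensing factor of replication origins, fell at 3 h (-1.22 ± 0.18, adjusted p = 0.00405, limma), and Cdt1, Ccne1 (cyclin E) and Orc6 (an origin recognition subunit) at 6 h, with changes between -1.09 and -0.91. Of all genes 0.863% fell at 3 h and 2.25% at 6 h. At 12 h 19 fell, where 8.90% of all genes did, and the medians at 3, 6 and 12 h were -0.35, -0.74 and -0.96. At 24 h 0 passed (2 unadjusted) and the median was 0.26, with 31 of 37 above 0, while the median of the 47 mitosis genes was -0.68 at that time. At 72 h 34 of 37 fell, where 17.5% of all genes did, with a median of -1.40. Their median level at 72 h was 7.31 with αKG and 6.15 with DW, against 8.02 and 8.05 at 0 h. How far these calls rest on the DW array was not tested. The order of these lists in time was not tested. In the late phase 1 of the 37 passed as higher with αKG, the activator E2f2 (0.90 ± 0.16, adjusted p = 0.0198, limma). Of all genes 2.09% did, so this call is near the share of all genes.

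The MuvB core and its partners include both the activating and the repressing side of G2/M transcription, and the genes past the threshold relative to 0 h are named for 6, 12 and 72 h. At 6 h 2 of 12 genes fell, E2f4 (-0.49 ± 0.11, adjusted p = 0.0266, limma) and the E2F partner Tfdp2 (-0.52 ± 0.13, 0.0486), where 2.25% of all genes did. At 72 h relative to 0 h 6 of 12 genes fell over both arms: the pocket protein Rbl1 (-1.53 ± 0.39, adjusted p = 0.012, limma), Tfdp1, of the same family as Tfdp2 (-1.42 ± 0.21, 0.000714), E2f4 (-1.29 ± 0.11, 2.33e-05), the MuvB subunits Lin54 (-1.21 ± 0.19, 0.000914) and Lin9 (-1.08 ± 0.16, 0.000544), and Rbbp4 (-0.51 ± 0.13, 0.0121). The gene that rose at 12 and 72 h was Rbl2, which encodes the pocket protein p130 of resting cells, by 0.52 ± 0.15 at 72 h (adjusted p = 0.0216, limma) and by 0.57 ± 0.15 at 12 h (adjusted p = 0.0214). At 12 h Tfdp1, Lin9, E2f4 and Lin54 fell, with changes between -0.94 and -0.66. Of all genes 8.90% fell and 8.32% rose at 12 h, and 17.5% fell and 12.1% rose at 72 h. The median over the 12 genes at 72 h was -0.43. Their median level at that time was 7.73 with αKG and 6.98 with DW, against 8.12 and 8.02 at 0 h. Whether the calls at 72 h hold without the DW array was not tested.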

How the data were processed

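The deposited log2 values (0.61 to 13.25, array medians 4.84 to 4.93) of 33793 features on 16 arrays of 1 colour were taken without change. Base 2 was inferred from their range, since no label states the scale. Per the labels' protocols, biotin was added to cDNA of total RNA with a WT terminal labelling kit. How the authors normalized and background-corrected them, and the arrays' genome build, is not given in the sources used here. Saturated or near-background features could not be told from others, and precision is limited by the array number. Of the features, 23521 had 1 gene symbol, 1814 several and 8458 are unnamed here. The dimmest 30% of genes (mean up to 4.34) were left out.

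Fits used limma 3.58.1 under R 4.3.3 (lmFit, eBayes with an intensity trend, Benjamini-Hochberg over 15526 genes, threshold 0.05), and ± is a standard error unless named otherwise. The time fit held 14 arrays, with time as a factor and 1 αKG effect (6 residual degrees of freedom). The phase fit held 8 groups (8 degrees of freedom). The αKG fit held the 12 arrays at shared times with time as a block (5, or 3 with 1 effect per phase). Pairing by time comes from the labels: deviations of same-time arrays from the arm means correlated at r = 0.50 to 0.75, and every array was most like the one of its own time. These deviations hold the time course itself, so the likeness cannot show whether same-time arrays share a culture or batch. The time fit, the phase fit and the αKG fit with a single effect were run on simulated data with independent noise. There the αKG effect did not change between times, unlike in these arrays. The αKG fit with 1 effect per phase was not simulated.

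The 47 genes and all lists were chosen with earlier results of these data known. Genes given in every array were the 2 brightest of each role class plus Mki67, Top2a, Cdk1, Foxm1 and Mybl2. For each comparison, up to 5 genes with the largest and 5 with the smallest change past the threshold are named, and exceptions where there are 5 or fewer. Ccnb1, Ccnb2, Ccna2, Cdc25c and Wee1 were named from the wider list, with up to 4 others. Alternatives were other filters, normalizations and eBayes settings, fits of only the groups compared, no time block, 1 arm only, another feature per gene and leaving out arrays. Figures were drawn with matplotlib 3.10.9.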

Additional observations from a re-analysis of the deposited data

Results flagged for a closer look

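The αKG effect differed in sign between phases. In 24 of the 47 genes αKG was below DW at 12 and 24 h and above DW at 48 and 72 h, which 1021 of all genes tested (6.58%) also did, and in 20 of the 47 αKG was below DW at 3 and 6 h and above it at 48 and 72 h, as in 1446 of all genes (9.31%). These counts take the sign of each single difference, including differences at 3 and 48 h that were within the spread of the 0 h arrays. The test of the difference in effect passed for 0 of 47 genes between the late and intermediate phases (limma, 47 at unadjusted p under 0.05) and for 0 between the late and early phases (26 unadjusted). Of the 16 genes given in every array, those with the first sign pattern had a late minus intermediate effect of 1.60 for Nuf2, 1.56 for Prc1, 1.54 for Top2a, 1.52 for Ect2, 1.37 for Tpx2, 1.22 for Ube2c, 1.20 for Aurkb, 1.13 for Aurka and 0.79 for Smc4, on the log2 scale. Those with the second had a late minus early effect of 1.10 for Nuf2, 0.95 for Top2a and for Prc1, 0.90 for Ect2, 0.85 for Ube2c, 0.81 for Aurka, 0.79 for Aurkb and 0.53 for Smc4. Over all 16 genes the late minus intermediate effect ran from 0.71 (Mybl2) to 1.60 and the late minus early effect from 0.15 (Mybl2) to 1.10.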

How the results depend on the processing

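Of 159 counts under alternatives other than leaving out arrays, 151 stayed within 1.5 times of the reported count, and no direction reversed. The 151 include counts that were 0 and stayed at 0, as for αKG against DW, so the total says little about the larger counts. Robust eBayes left 15 genes at 72 h over 0 h and 10 at 72 h over 48 h. With the lowest 50% of genes left out 2 genes passed at 12 h, and with the dimmer feature of Mybl2 the counts were 0 at 12 h, 2 at 24 h and 1 at 48 h over 0 h. Fits of only the 2 groups compared gave 1 gene for early αKG and 1 for early DW; the cause was not tested. Leaving out single arrays gave 0 to 37 genes at 12 h, 1 to 24 at 24 h, 0 to 2 at 6 h, 0 to 4 at 48 h and 3 to 47 at 72 h over 0 h. It gave 0 to 25 for 48 h over 24 h, 1 to 47 for 72 h over 48 h, 0 to 11 for 12 h over the mean of 6 and 24 h, and 0 to 44 for late DW. Leaving out pairs gave 0 to 45 for late αKG over DW and for late minus early, and 0 to 47 for late minus intermediate. Where 1 array is left at a time or phase, it is assumed to vary like the others. The highest counts came without a 72 h array, or for phases without the 48 h array or pair. The lowest at 72 h over 0 h came without the DW array at 72 h or 1 array at 0 h. Every other range was 0 to 0. Without the time block the αKG counts were 0 throughout, as they were with it. Since no gene had passed with the block, this cannot show whether the pairing by time matters.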

Other observations

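Ncapg, a condensin subunit, and Ccnf, a cyclin that acts in protein destruction, share their features with Lcorl and with Mir5134, so neither value belongs to 1 gene. The shared Ncapg feature had log2 levels of 8.0 with αKG and 8.08 with DW at 48 h, and of 7.61 with αKG and 5.95 with DW at 72 h, against 8.13 and 8.16 at 0 h. The shared Ccnf feature had 7.21 with αKG and 6.50 with DW at 72 h, against 7.49 and 7.50 at 0 h. Both were lowest in the DW array at 72 h, as were most of the 47 genes.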
